A study of Mus musculus with 12 samples.

Results

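The genotype by LPS interaction asks, gene by gene, whether lipopolysaccharide (LPS) changed expression by a different amount in macrophages that lack the receptor GPR15 than in wild-type macrophages. It was computed as LPS minus PBS in knockout cells (KO) less LPS minus PBS in wild-type cells (WT), on the log2 scale. A negative value therefore means that the LPS difference was lower in KO, and a positive value that it was higher. The genes described are the 11776 whose brightest probe stood well above background in every one of 12 arrays, of 13283 genes tested and 22911 gene symbols on the array. Macrophages from the abdominal cavity of C57/BL6 mice, labelled wildtype or GPR15 KO, were cultured in DMEM with 10% FBS. For 4 h they were given either PBS or 100 ng/ml LPS. The 4 groups (WT PBS, WT LPS, KO PBS and KO LPS) hold 3 arrays each. The sources used here do not say whether the 3 arrays of a group came from separate mice or cultures, how the knockout was made or how the cells were purified, so p-values measure only the spread between these samples.

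LPS, a component of the outer membrane of Gram-negative bacteria, is sensed by Toll-like receptor 4. One signalling arm from this receptor, through the adaptor MyD88, activates NF-kB and the genes for inflammatory cytokines and chemokines. The other arm induces type I interferons, which leave the cell and act on its interferon receptor. Kinases at this receptor then activate a transcription factor complex, which includes STAT2 and IRF9 and binds the interferon-stimulated response element and switches on antiviral genes. GPR15 is a G protein-coupled receptor known mainly for guiding T cells to the large intestine.

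The Gpr15 probe was not well above background on any of the 12 arrays, so the knockout label could not be checked at the RNA level. All 14 macrophage markers were above background on every array. Their summed level, relative to each array's 75th percentile, spanned 901 to 992 in the WT arrays and 938 to 1030.2 in the KO arrays. The groups also differed in sex-linked transcripts: Xist was above background on 6 of 6 WT and 0 of 6 KO arrays, and the Y-linked genes Ddx3y, Kdm5d and Uty on 0 of 6 WT and 6 of 6 KO arrays, so genotype cannot be told apart from this difference. The arrays lay on 2 slides. The 6 WT arrays and KO PBS replicates 1 and 2 shared slide 1, and the KO LPS arrays were on slide 2 with KO PBS replicate 3. Neither slide holds all 4 groups, so the interaction cannot be had within a slide, and a model with the slide as a term rests on KO PBS replicate 3. Named genes and gene groups are therefore also given with that model where it ends a call.

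LPS changed most genes in both genotypes, and the interaction was called for a small share of them. Of the 11776 genes, 7808 (66.3%) were called for LPS in WT and 8022 (68.1%) in KO at an adjusted p under 0.05 (limma, Benjamini-Hochberg). In WT 35.4% were called higher and 30.9% lower after LPS, and in KO 35.7% and 32.5%. Over all 13283 genes tested 64.7% were called in WT and 67.0% in KO. The interaction was called for 541 genes (4.59%), of which 435 (3.69%) were negative and 106 (0.900%) positive. Over the 13283 the calls numbered 573 (4.31%), 450 (3.39%) negative and 123 (0.926%) positive. The negative differences were also the larger ones. Their median was -0.68, and 117 reached 2-fold and 15 reached 4-fold. The positive ones had a median of 0.52, with 5 at 2-fold and 0 at 4-fold.

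**Figure D1:**
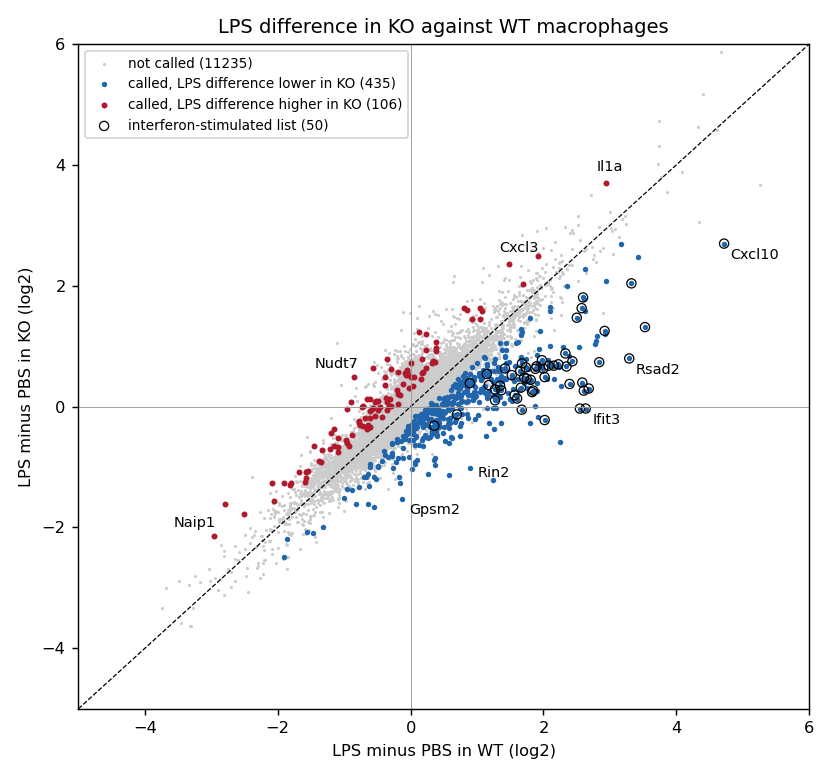
LPS minus PBS in KO (vertical) against the same in WT (horizontal), both in log2 units, for 11776 genes; each point is a gene and the dashed line marks equal differences. Called negative genes (435, blue) lie below the line, mostly where WT rose, called positive genes (106, red) lie above it, and the circled 50 interferon-stimulated genes lie below it.

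All 541 genes kept the direction of their interaction when the slide was a term, but their direction could not have changed there. In each of them all 9 LPS minus PBS differences between KO arrays lay beyond all 9 between WT arrays. Of the 11235 genes not called, 8197 kept their direction. With that term 289 of the 435 negative and 35 of the 106 positive genes were still called. The total of calls depended on single arrays. Without KO PBS replicate 3, the KO PBS array of slide 2, there were 2549 calls (1492 negative and 1057 positive), and without WT PBS replicate 3 there were 910. Leaving out any other array gave 349 to 684, with 349 without WT PBS replicate 1 or KO PBS replicate 1 and 357 without KO LPS replicate 1. Positive calls made up 19.6% of the total, but 39.0% when the arrays were scaled to the 75th percentile of probes above background on all 12 arrays, and 29.7% after normexp correction of the median signal with quantile normalization.

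Sorted by the LPS call in each genotype, most negative genes were ones that LPS raised in WT. In 186 genes LPS raised expression in both genotypes but less in KO, with a median rise of 1.38 in WT and 0.51 in KO. In 108 the rise was called in WT alone, with median differences of 0.69 in WT and 0.02 in KO. A further 61 rose in WT and fell in KO, at medians of 0.38 and -0.32. The remaining negative genes fell after LPS: 46 had a fall called in KO alone, and 34 fell in both genotypes and more in KO. The largest positive class, 40 genes, fell in both genotypes but less in KO, at medians of -1.15 and -0.65. The other positive classes were a fall called in WT alone (21 genes), a larger rise in KO (20), a rise called in KO alone (16) and a fall in WT with a rise in KO (9).

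**Figure D2:**
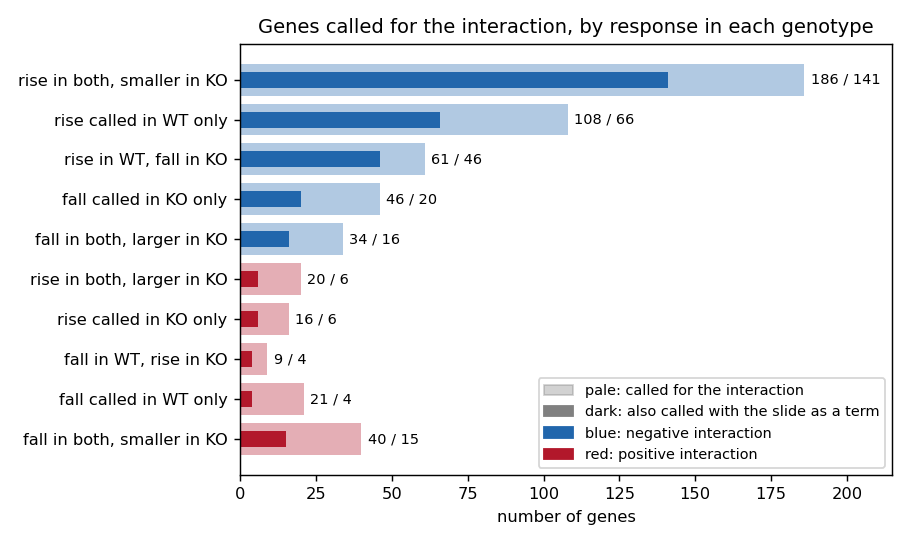
Number of genes called for the interaction (pale bars, horizontal axis) in each of the 10 response classes, with the number also called with the slide as a term (dark bars); blue is negative, red positive. Of the 186 genes with a smaller rise in KO 141 were still called with that term, against 6 of the 20 genes with a larger rise in KO.

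The negative genes also differed between the genotypes before and after LPS. In PBS 196 of the 435 were called higher in KO than in WT and 17 lower, against 8.31% and 6.42% of all 11776 genes. After LPS 388 were called lower in KO and 5 higher, against 21.2% and 19.0% of all. A genotype difference was called after LPS alone in 221, in both conditions in 172 and in PBS alone in 41. Among the 106 positive genes, 27 were called lower and 3 higher in KO in PBS, and 87 were called higher and 2 lower after LPS. These counts come from the arrays that also give the interaction, so they describe it and are not further evidence for it, and all KO LPS arrays lie on another slide than the WT LPS arrays.

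Interferon-stimulated genes had lower LPS differences in KO almost throughout. Of 54 listed genes, 50 were above background on all 12 arrays, and 49 of these were called negative, against 3.69% of all genes. The median interaction was -1.37, compared with -0.02 over all 11776 genes, and -1.40 with the slide as a term, where 48 were called. LPS raised 49 of the 50 in WT and 38 in KO, and the median difference over the 50 was 1.94 in WT and 0.51 in KO. Mx1, Mx2, Ifi44l and Cxcl11 were not among the 50. Cxcl9, a T-cell attracting chemokine, was the 1 gene of the 50 not called, at -0.82 ± 0.81 (SE; adjusted p = 0.596).

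The list's median signal was also taken on each array. The values below are log2 signals relative to the array's 75th percentile. In WT PBS the list's median was 2.55, 2.58 and 2.53 on the 3 arrays, and in WT LPS 4.71, 4.74 and 4.50. In KO PBS it was 3.36, 3.23 and 3.28, and in KO LPS 3.93, 3.93 and 3.82. KO cells thus started above WT cells and ended below them, with no overlap between any of the 4 groups. KO PBS replicate 3, on slide 2, lay between the 2 KO PBS arrays of slide 1. Of the 50 genes, 44 were called higher in KO in PBS and 1 lower, Ifi27l2a, and 49 were called lower in KO after LPS. The median genotype difference was 0.59 in PBS and -0.77 after LPS.

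**Figure D3:**
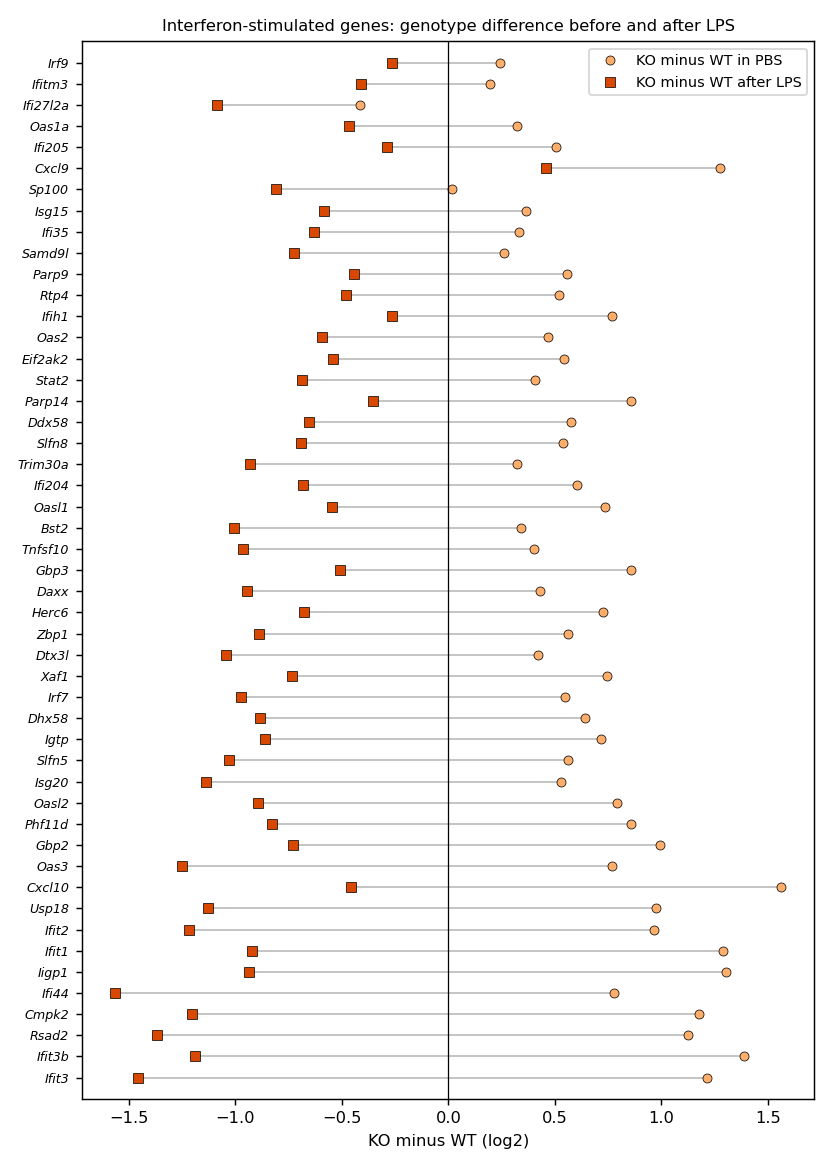
KO minus WT in PBS (orange circles) and after LPS (red squares), in log2 units on the horizontal axis, for 49 of the 50 interferon-stimulated genes on the vertical axis, ordered by interaction; the grey line joins the 2 values of a gene. The PBS value is above 0 for every gene but Ifi27l2a, and the LPS value is below 0 for all but Cxcl9.

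The largest effectors showed the pattern on every array. Ifit3 belongs to a family of proteins that bind viral RNA. Its signal was 1.09, 0.89 and 1.40 in WT PBS, and 3.79, 3.87 and 3.62 in WT LPS. In KO PBS it was 2.41, 2.00 and 2.61, and in KO LPS 2.29, 2.31 and 2.31. LPS raised Ifit3 6.22-fold in WT, while the KO LPS values lay inside the range of the KO PBS values. The interaction was -2.67 ± 0.21 (SE; limma adjusted p = 2.54e-05).

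Rsad2 encodes viperin, an enzyme that makes a chain-terminating nucleotide against viral polymerases. Its signal was 1.91, 1.67 and 2.47 in WT PBS and 5.31, 5.38 and 5.24 in WT LPS. In KO cells it was 3.33, 2.93 and 3.18 in PBS and 3.98, 3.98 and 3.86 after LPS. Rsad2 rose 9.79-fold in WT and 1.74-fold in KO, and no 2 groups overlapped. The interaction was -2.49 ± 0.23 (adjusted p = 4.75e-05). Cmpk2, a mitochondrial nucleotide kinase, had an interaction of -2.38 with a rise called in WT alone. Apol9b, an apolipoprotein L gene, had the most negative value of all named genes, -2.85 ± 0.36 (adjusted p = 0.000575).

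Cxcl10, a chemokine that recruits T cells and NK cells through CXCR3, differed most between the genotypes in PBS within the list. It measured 1.90, 1.69 and 2.04 in WT PBS and 3.36, 3.72 and 3.23 in KO PBS. After LPS it reached 6.64, 6.76 and 6.39 in WT and 6.12, 6.20 and 6.09 in KO. The KO arrays were the higher ones in PBS and the lower ones after LPS. Its interaction was -2.02 ± 0.18 (adjusted p = 4.54e-05).

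Isg20, an RNA exonuclease, had the smallest p of the list, with an interaction of -1.67 ± 0.09 (adjusted p = 7.26e-06). It rose 7.57-fold in WT and 2.38-fold in KO. Oas3, which makes the 2-5A messenger that activates RNase L, rose 5.25-fold in WT and 1.30-fold in KO. Its signal was -0.54, -0.48 and -0.56 in WT PBS, 1.90, 1.92 and 1.79 in WT LPS, 0.44, 0.08 and 0.21 in KO PBS, and 0.68, 0.56 and 0.62 in KO LPS. All 3 KO LPS values of Oas3 thus lay above every KO PBS value and more than 1 log2 unit below every WT LPS value. Its interaction was -2.02 ± 0.12 (adjusted p = 7.53e-06). Usp18, a protease that removes ISG15 and dampens the interferon receptor, had an interaction of -2.10, Xaf1, a pro-apoptotic gene, -1.48, and Oasl2 -1.68. Bst2, which encodes tetherin and holds budding viruses at the cell surface, rose by 1.66 in WT and 0.31 in KO, with an interaction of -1.35 ± 0.10 (adjusted p = 2.43e-05).

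Promoters are shown for Oas3 and Bst2, the 2 called genes of the list with the smallest p whose promoter holds the core of the interferon-stimulated response element. The letters searched were GAAA and GAAA with any 2 bases between them, on both strands, from 250 bases before to 50 after the gene start. The 250 bases before the start are printed 5′ to 3′ on the gene's own strand, from RefSeq's GRCm38.p6, with the matches in capitals. Oas3 lies at chr5:120777660-120777909 on the minus strand and Bst2 at chr8:71537473-71537722 on the minus strand. In Bst2 the 2 matches overlap.
Oas3: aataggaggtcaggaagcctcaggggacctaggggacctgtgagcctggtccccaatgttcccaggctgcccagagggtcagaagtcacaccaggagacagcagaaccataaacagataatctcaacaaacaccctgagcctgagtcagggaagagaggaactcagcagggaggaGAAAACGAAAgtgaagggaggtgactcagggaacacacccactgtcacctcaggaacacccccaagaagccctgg
Bst2: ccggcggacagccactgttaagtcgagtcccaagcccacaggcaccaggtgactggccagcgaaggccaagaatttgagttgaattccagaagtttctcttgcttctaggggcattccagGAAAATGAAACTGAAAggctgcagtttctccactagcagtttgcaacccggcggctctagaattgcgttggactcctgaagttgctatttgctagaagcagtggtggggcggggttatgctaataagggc

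The motif's share was counted where at least 80% of a class had a promoter in the table. A gene counted once, if any of its promoters held the letters. Of the 186 genes with a smaller rise in KO, 149 (80.1%) had a promoter, and 47 of these genes (31.5%) held the letters. Of the 61 genes that rose in WT and fell in KO 80.3% had one, and 3 of 49 (6.12%) held them. The share was 3.20% of 9005 genes not called and 3.41% of 88 positive genes. By positive class it was 1 of 33 genes with a smaller fall in KO and 1 of 17 with a larger rise in KO. It was 1 of 13 with a rise called in KO alone, 0 of 17 with a fall called in WT alone and 0 of 8 with a fall in WT and a rise in KO. Of all 32851 promoters in the table, each counted singly, 3.44% held the letters. The letters searched for NF-kB were GGGA and TTCC, or GGG and TTTCC, each with any 2 bases between; matches can overlap. Among genes with a promoter, they stood in 6.04% of the class with a smaller rise and 6.12% of the class with a rise in WT and a fall in KO. They stood in 2.27% of the positive genes and 3.19% of genes not called, and in 2.68% of all promoters, each counted singly. For the 435 negative genes as a whole 78.4% had a promoter, and for the 50 interferon-stimulated genes 78.0%, so the count is void for both sets. A match is a run of letters and no measurement of binding.

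The transcription factors and RNA sensors of the interferon response had negative interactions too; they were singled out after their values were seen. Irf7, the factor that amplifies interferon-alpha genes, measured 5.62, 5.60 and 5.62 in WT PBS, 7.84, 7.98 and 7.69 in WT LPS, 6.27, 6.03 and 6.17 in KO PBS, and 6.90, 6.94 and 6.74 in KO LPS. The 4 groups of Irf7 did not overlap, and both KO groups lay between the WT groups. Its interaction was -1.52, that of Stat2 -1.09 and that of Irf9 -0.50. Among sensors of viral RNA, Ddx58 (RIG-I) had -1.23 and Ifih1 (MDA5) -1.03, and Irf7, Stat2, Irf9, Ddx58 and Ifih1 each rose in both genotypes.

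Of 19 measured genes for interferon induction and the interferon receptor, 3 (15.8%) were called negative and 0 positive, against 3.69% and 0.900% of all genes. Their median was -0.18. Cgas, the sensor of cytosolic DNA, had an interaction of -0.79 ± 0.14 (adjusted p = 0.00656), with a rise called in WT alone. Jak2, a cytokine receptor kinase, had -0.44 and Tbk1, the kinase that activates IRF3, -0.35. With the slide as a term none of the 3 was called, at adjusted p = 0.065, 0.19 and 0.16.

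Gene families picked out by their symbols after the values were seen gave negative calls, with 0 positive calls in any of them (limma), where 3.69% of all genes were called negative. All 7 Schlafen genes and all 4 Phf11 genes were called negative, at medians of -1.59 and -1.62, and Slfn4 rose by 2.93 in WT and 1.20 in KO. Among families of interferon-inducible GTPases, 6 of 9 guanylate-binding proteins and 5 of 6 immunity-related GTPases were called. Gbp4 missed the call (adjusted p = 0.0506), and Iigp1 was called at -2.24 ± 0.46 (adjusted p = 0.0159) but not with the slide as a term (adjusted p = 0.15). The calls numbered 8 of 10 in the Oas family, 7 of 8 in the Ifi200 family of DNA-binding proteins, where Aim2 was at -0.15, and 5 of 12 in the Parp family. In the large Trim family of ubiquitin ligases 10 of 38 were called, including Trim30a at -1.25. Probes for near-identical copies within these families may share signal. The families also overlap the interferon-stimulated list, as with Oas3, Iigp1 and Trim30a, so their counts are not separate from that list's counts.

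Genes of antigen presentation by MHC class I had negative interactions in part. Of 15 measured genes 8 (53.3%) were called negative and 0 positive, against 3.69% and 0.900% of all genes. The median was -0.44, and with the slide as a term it was -0.44 with 7 called. The interaction was -0.73 ± 0.08 (adjusted p = 0.000234) for Tap1, which pumps peptides into the endoplasmic reticulum. It was -0.85 for Psmb10, -0.93 for Psmb8 and -0.67 for Psme1, parts of the immunoproteasome and its activator. Psmb8 measured 3.46, 3.48 and 3.43 in WT PBS and 4.09, 4.16 and 3.83 in WT LPS. In KO PBS it was 3.63, 3.70 and 3.37, and in KO LPS 3.25, 3.27 and 3.11. The KO LPS values were the lowest of the 4 groups: Psmb8 rose by 0.57 in WT and fell by 0.36 in KO.

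Of 29 measured cell death genes, 7 (24.1%) were called negative and 1 positive, against 3.69% and 0.900% of all genes. The slide model left 5 negative calls and 1 positive. Mlkl, the executioner of necroptosis, had an interaction of -1.36 ± 0.21 (adjusted p = 0.00222). Casp1, the protease that matures interleukin-1 beta and interleukin-18, had -0.63; it rose by 0.30 in WT and fell by 0.34 in KO. The positive gene was Pmaip1, which encodes the BH3-only protein NOXA. It fell by 0.12 in WT and rose by 0.38 in KO, giving 0.50 ± 0.07 (adjusted p = 0.000941).

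The 17 measured cytokine genes split, with 2 negative and 2 positive calls (11.8% each, against 3.69% and 0.900% of all genes). Il15, a growth factor for NK and memory T cells, measured -0.49, -0.63 and -0.26 in WT PBS and 2.22, 2.17 and 2.54 in WT LPS. In KO it was 0.65, 0.57 and 0.65 in PBS and 1.72, 1.78 and 1.50 after LPS. Il15 rose 6.82-fold in WT and 2.06-fold in KO, with no overlap between groups and an interaction of -1.73 ± 0.16 (adjusted p = 5.55e-05). Il18 followed at -0.98 ± 0.10 (adjusted p = 0.000135). The positive calls were Il1a at 0.75 ± 0.15 (adjusted p = 0.0153) and Tnfsf9, the ligand of the co-stimulatory receptor 4-1BB, at 0.58 ± 0.15 (adjusted p = 0.0466), and with the slide as a term neither was called, at adjusted p = 0.13 and 0.29.

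Most other hallmark cytokines of the LPS response had no called interaction. Tnf rose by 1.38 in WT and 1.01 in KO (interaction -0.37, adjusted p = 0.148). Il10 rose by 2.73 and 2.64 (-0.09, adjusted p = 0.769), and Il1b by 2.52 and 3.16 (0.64, adjusted p = 0.112). Il6 had a large value that was not called, 1.16 ± 0.35 (adjusted p = 0.0949). Its WT PBS arrays were uneven, at 6.30, 6.53 and 5.20, against 5.02, 5.10 and 4.91 in KO PBS, while after LPS it was 7.63, 7.63 and 7.79 in WT and 7.90, 7.93 and 7.72 in KO. The same WT PBS array, replicate 3, stood apart for the immediate early gene Fos, at 1.04 against 4.00 and 4.30. Fos had the most positive value of all 11776 genes, 2.16 ± 0.87 (adjusted p = 0.191).

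Nos2, the inducible nitric oxide synthase, and Fcgr1, the high-affinity IgG receptor, had large negative values that missed the call. For Nos2 the interaction was -1.58 ± 0.53 (adjusted p = 0.127), and for Fcgr1 -1.67 ± 0.50 (adjusted p = 0.0899). In WT PBS Fcgr1 measured 0.70, 0.93 and -0.68, and in WT LPS 2.98, 3.11 and 2.12, so replicate 3 was the lowest in both groups.

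**Figure D4:**
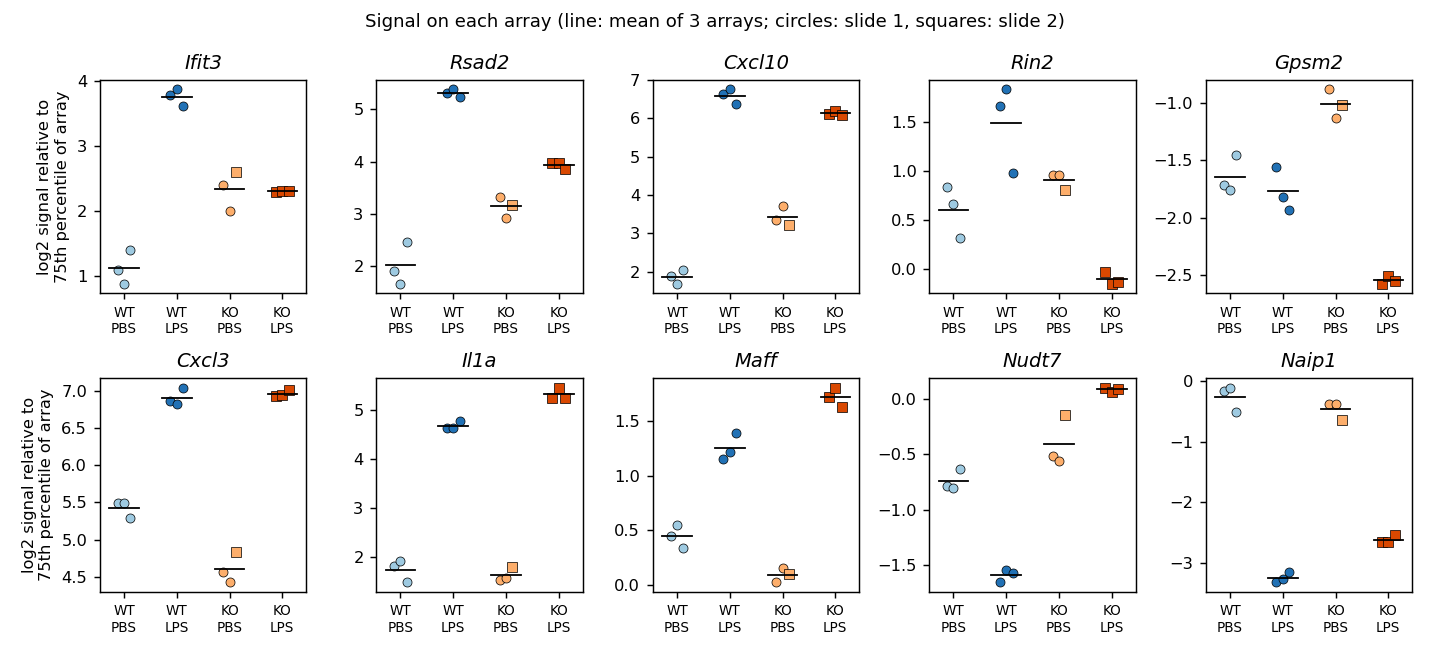
Log2 signal relative to the array's 75th percentile (vertical) on each of the 12 arrays by group (horizontal) for 10 genes; the line is the mean of 3 arrays, circles are slide 1 and squares slide 2. In the upper row KO LPS lies below WT LPS for Ifit3, Rsad2, Cxcl10, Rin2 and Gpsm2; in the lower row the LPS difference is higher in KO for Cxcl3, Il1a, Maff, Nudt7 and Naip1.

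Some genes moved in opposite directions in the 2 genotypes. Rin2, which activates the endocytic GTPase Rab5, measured 0.84, 0.66 and 0.32 in WT PBS and 1.67, 1.84 and 0.98 in WT LPS. It measured 0.96, 0.96 and 0.80 in KO PBS and -0.04, -0.16 and -0.14 in KO LPS. The KO LPS arrays were below all others, and Rin2 rose 1.86-fold in WT and fell 2.03-fold in KO. Its interaction was -1.91 ± 0.26 (adjusted p = 0.00108). Ifit1bl1, a relative of Ifit1, rose by 1.24 in WT and fell by 1.21 in KO, and Nmral1, a redox-sensing regulator, rose by 0.58 and fell by 1.13. Hap1 had an interaction of -1.63, but its other probe gave the opposite sign, and the mean of both was not called (-0.69, adjusted p = 0.0617). Siglec1, the sialoadhesin of macrophages, rose by 0.52 in WT and fell by 0.58 in KO, with an interaction of -1.10 (adjusted p = 0.0066), or adjusted p = 0.066 with the slide as a term.

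The reverse pattern, a fall in WT and a rise in KO, was led by Nudt7, a peroxisomal coenzyme A hydrolase. It measured -0.79, -0.81 and -0.63 in WT PBS, -1.65, -1.54 and -1.57 in WT LPS, -0.52, -0.56 and -0.15 in KO PBS, and 0.10, 0.07 and 0.09 in KO LPS. The 2 LPS groups thus lay on either side of both PBS groups. The interaction of 1.34 ± 0.14 (adjusted p = 0.000145) was the most positive one called, and 1.08 with the slide as a term. Its other probe gave 0.0066, and the mean of both probes gave 0.67 (adjusted p = 0.017). Tlr1, which pairs with TLR2 to sense bacterial lipopeptides, fell by 0.18 in WT and rose by 0.57 in KO, giving 0.75 ± 0.10 (adjusted p = 0.000672). Its signal was 1.05, 1.05 and 1.00 in WT PBS, 0.80, 0.78 and 0.97 in WT LPS, 0.81, 0.83 and 1.03 in KO PBS, and 1.42, 1.50 and 1.46 in KO LPS. The KO LPS arrays of Tlr1 were above all others, and the PBS groups overlapped. Cacna1b, a calcium channel gene, and Strbp had interactions of 1.21 and 0.88, and with the slide as a term neither was called, at adjusted p = 0.099 and 0.15.

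A further set of negative genes fell in KO with no called change in WT. Gpsm2, a regulator of spindle orientation, measured -1.72, -1.76 and -1.46 in WT PBS and -1.56, -1.82 and -1.93 in WT LPS. In KO it was -0.88, -1.13 and -1.02 in PBS and -2.57, -2.51 and -2.55 after LPS. The WT groups overlapped, while the KO arrays were the highest in PBS and the lowest after LPS. Gpsm2 fell 2.89-fold in KO, with an interaction of -1.41 ± 0.17 (adjusted p = 0.000318). Aldh1b1 and Slc23a1, at -1.06 and -1.01, were not called with the slide as a term (adjusted p = 0.080 and 0.12).

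Among genes that fell in both genotypes, Keap1, the repressor of the antioxidant factor NRF2, fell by 0.22 in WT and by 0.91 in KO. It measured 2.22, 2.19 and 2.27 in WT PBS, 2.05, 2.01 and 1.95 in WT LPS, 2.38, 2.42 and 2.20 in KO PBS, and 1.43, 1.48 and 1.34 in KO LPS. The PBS groups of Keap1 overlapped and the KO LPS arrays were the lowest. Its interaction was -0.69 ± 0.09 (adjusted p = 0.000671). Keap1 was the 1 call among 23 antioxidant and NRF2 genes (4.35% negative, against 3.69% of all genes). Cdh17, a cadherin, had -0.97, Cnp, a phosphodiesterase, -0.79 and Tmem229b -0.74.

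Genes with a larger rise in KO were led by Cxcl3, a neutrophil-attracting chemokine. It measured 5.50, 5.49 and 5.30 in WT PBS and 6.87, 6.82 and 7.05 in WT LPS. In KO PBS it was 4.56, 4.43 and 4.83 and in KO LPS 6.93, 6.94 and 7.01. The LPS groups overlapped and the PBS groups did not, the KO PBS arrays being lower. Cxcl3 rose 2.80-fold in WT and 5.13-fold in KO, an interaction of 0.88 ± 0.14 (adjusted p = 0.00247). It was the 1 call among 5 measured neutrophil-attracting chemokines (20% positive, against 0.900% of all genes). Cxcl2 was at 0.62 (adjusted p = 0.052) and Cxcl1 at -0.43 (adjusted p = 0.141).

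The promoter of Cxcl3 is shown because it was the 1 gene of this class in the cytokine and chemokine lists whose promoter held the NF-kB letters. In the whole class 1 of 17 genes with a promoter held them (5.88%). Among all positive genes the share was 2.27% of 88, and among genes not called 3.19% of 9005. Of all promoters, each counted singly, it was 2.68%. Only 2 positive genes held the letters, and the difference was not tested. For Cxcl3 the 250 bases before the start lie at chr5:90785851-90786100 on the plus strand of GRCm38.p6 (RefSeq), with the 2 overlapping matches in capitals.
Cxcl3: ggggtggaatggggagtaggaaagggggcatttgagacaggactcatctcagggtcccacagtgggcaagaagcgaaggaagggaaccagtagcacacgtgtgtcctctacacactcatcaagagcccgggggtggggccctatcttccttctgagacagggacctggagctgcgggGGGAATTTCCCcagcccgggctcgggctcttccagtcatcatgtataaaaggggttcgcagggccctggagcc

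Maff, a small MAF transcription factor, measured 0.45, 0.55 and 0.34 in WT PBS and 1.16, 1.22 and 1.40 in WT LPS. In KO it was 0.03, 0.16 and 0.10 in PBS and 1.72, 1.81 and 1.63 after LPS, so KO was the lower genotype before LPS and the higher one after it. Maff rose 1.75-fold in WT and 3.09-fold in KO, an interaction of 0.82 ± 0.11 (adjusted p = 0.000873). Fosl2, a subunit of AP-1, had 0.53 (adjusted p = 0.0266) and was not called with the slide as a term (adjusted p = 0.12). These 2 were the calls among 20 immediate early factors, so 10% were called positive, against 0.900% of all genes. Il1a, whose interaction is given above, measured 4.63, 4.64 and 4.77 in WT LPS and 5.26, 5.46 and 5.26 in KO LPS, and its PBS groups overlapped. Prr7 had 0.75 ± 0.14 (adjusted p = 0.00888).

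Rises called in KO alone were few and mostly lost with the slide as a term. Prss28, Tnfrsf19 and Mbd1 were called at 1.14, 0.97 and 0.70, and with that term their adjusted p was 0.26, 0.18 and 0.20. The other probes of Tnfrsf19 and Mbd1 gave the opposite sign. Tnfrsf18, the co-stimulatory receptor GITR, had 0.70 ± 0.12 (adjusted p = 0.0039), and Idi1, an isomerase of cholesterol synthesis, 0.63 ± 0.09 (adjusted p = 0.00208) as the 1 call among 21 genes of that pathway. Thus 4.76% of the 21 were called positive, against 0.900% of all genes.

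Falls that were smaller in KO included Naip1, a sensor subunit for bacterial needle proteins in the NLRC4 inflammasome. It measured -0.18, -0.12 and -0.52 in WT PBS, -3.31, -3.25 and -3.14 in WT LPS, -0.38, -0.39 and -0.64 in KO PBS and -2.65, -2.64 and -2.54 in KO LPS. The PBS groups overlapped and the LPS groups did not. Naip1 fell 7.79-fold in WT and 4.41-fold in KO, an interaction of 0.82 ± 0.16 (adjusted p = 0.014). Its other probe gave 0.26, and it was not called with the mean of both probes (0.54, adjusted p = 0.187), with the normexp setting (0.42, adjusted p = 0.119) or without WT PBS replicate 1 (0.77, adjusted p = 0.0516). Hepacam2 fell 6.93-fold in WT and 3.04-fold in KO (1.19 ± 0.19, adjusted p = 0.0034); its other probe gave 0.25, and with the mean of both it was not called (0.72, adjusted p = 0.107). Mmp12, the macrophage elastase, fell by 0.89 in WT and had a difference of 0.08 in KO, giving 0.97 (adjusted p = 0.021). With the slide as a term Mmp12 was not called (adjusted p = 0.17), nor were Slc25a30 and Pde4d of the class with a fall in WT alone (0.23 and 0.058) or Radx of the class with a smaller fall in KO (0.11), while Cbx7 was (0.020).

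Cr2, the complement receptor CD21 of B cells, fell by 1.15 in WT and 0.37 in KO, giving 0.79 ± 0.10 (adjusted p = 0.000414). It was the 1 call among 13 B-cell markers (7.69% positive, against 0.900% of all genes), all of them above background on every array. Their summed level was 155 to 196 in WT PBS, 80.02 to 95.2 in WT LPS, 127 to 133 in KO PBS and 64.5 to 66.7 in KO LPS, so the list was lower after LPS in both genotypes and lower in KO in both conditions. The part of these levels in the interaction of Cr2 was not tested, and fewer cells of a type cannot be told apart from less RNA per cell. In the other marker lists, 0 of 12 T-cell, 0 of 5 NK-cell, 0 of 8 mast-cell, 0 of 5 neutrophil, 0 of 6 dendritic cell, 0 of 2 mesothelial and fibroblast, and 0 of 3 erythroid and platelet markers measured on all arrays were called for the interaction (limma). At an unadjusted p under 0.05 there were 5 among the T-cell markers, 3 among the dendritic cell markers and 0 in each of the other 5 lists, where 21.0% of all genes had such a p. The share called at an adjusted p under 0.05 was 4.59% of all genes. Of 3 eosinophil markers 1 was called, Il5ra at 0.41 (adjusted p = 0.0419, or 0.11 with the slide as a term). Of 4 X-linked genes 1 was, Eif2s3x at -0.54 (adjusted p = 0.0241), but its other probe gave the opposite sign. Of the macrophage markers 1 of 14 was, Timd4, an uptake receptor for dying cells, at -0.69 ± 0.12 (adjusted p = 0.00454), with a rise of 0.76 in WT alone.

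The remaining lists held 0 to 3 calls each, against 4.59% of all genes. In the TLR4 and NF-kB components, 3 of 33 were called: Tlr1 positive, and Myd88 at -0.29 and Relb at -0.28 negative. Neither Myd88 nor Relb was called with the slide as a term (adjusted p = 0.16 and 0.20). Tnip3, a feedback inhibitor of NF-kB, was the 1 call of 28 in its list, at -0.95 ± 0.12 (adjusted p = 0.000697), after rises of 3.42 in WT and 2.47 in KO. Its KO PBS arrays, at -0.77, -0.61 and -0.83, lay above the WT PBS arrays at -1.39, -1.31 and -1.56, and its KO LPS arrays, at 1.71, 1.67 and 1.82, lay below the WT LPS arrays at 2.00, 2.12 and 1.87. Among co-stimulatory genes Cd40 was negative (-0.84; adjusted p of 0.0502, 0.0553 and 0.0539 without WT PBS replicate 1, KO PBS replicate 1 or KO LPS replicate 3) and Cd80 positive (0.62), and among 12 other chemokines Ccl5 was negative (-0.87). With the slide as a term Cd80 and Ccl5 were not called (adjusted p = 0.16 and 0.22).

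Of 19 genes of cholesterol efflux, Npc2, which carries cholesterol out of lysosomes, was negative at -0.51 ± 0.07 (adjusted p = 0.00105), as was Apoc2 at -0.50. Cd36, a scavenger receptor, was positive at 0.48. Gch1, Ddit3 and Birc5 were each the 1 call of their lists (14 nitric oxide, arginine and itaconate genes, 30 stress genes and 28 cell cycle genes), at -0.27, -0.46 and -0.51. Apoc2, Cd36, Gch1, Ddit3 and Birc5 were not called with the slide as a term, at adjusted p between 0.078 and 0.23. Counts were 0 of 19 for glycolysis, 0 of 22 for the citric acid cycle, 0 of 43 for cytosolic ribosomal proteins and 0 of 14 for alternative activation. At an unadjusted p under 0.05 (limma) these lists had 6, 4, 14 and 2 genes, or 31.6%, 18.2%, 32.6% and 14.3% of their members, against 21.0% of all genes. The members with the smallest p in these 4 lists were Aldoc (0.57, adjusted p = 0.104), Idh2 (0.43, 0.0929), Rps18 (-0.28, 0.0686) and Il4ra (-0.47, 0.126).

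**Figure D5:**
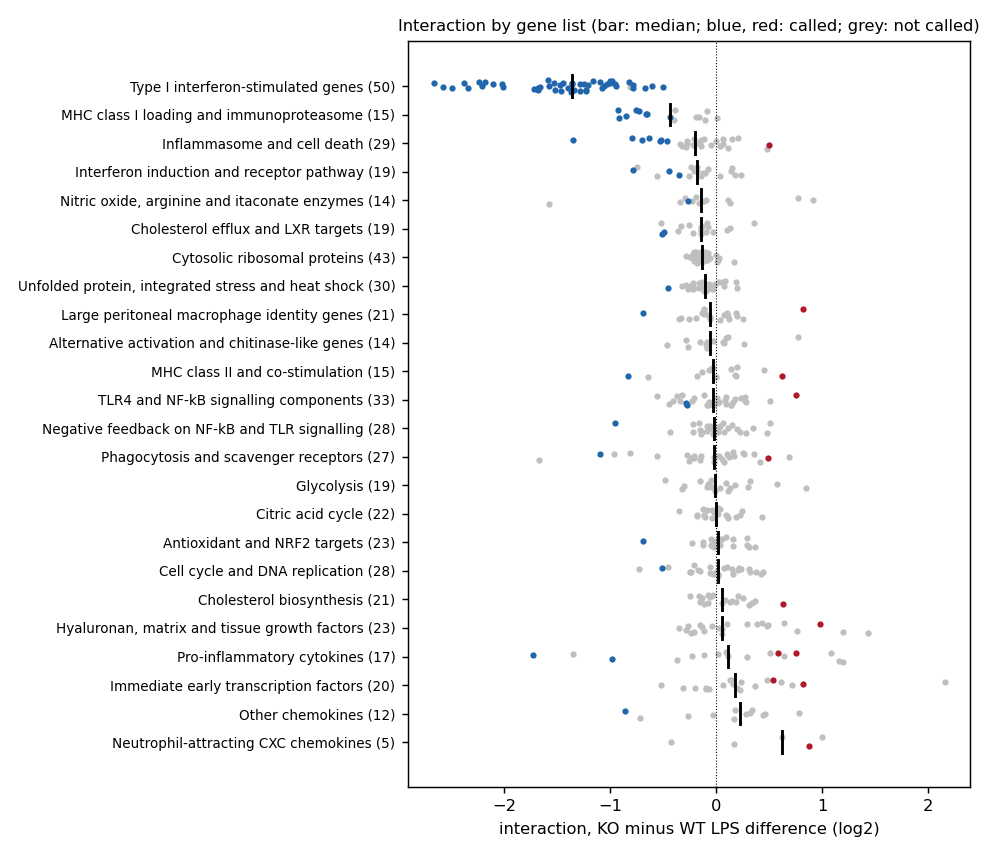
Interaction in log2 units (horizontal) for every measured member of the 24 gene lists (vertical, number of members in brackets, ordered by median); black bars are medians, blue and red points are called negative and positive, grey points are not called. The interferon-stimulated list has its median at -1.37 and the MHC class I list at -0.44, while the other lists lie nearer to 0 apart from the small CXC chemokine list.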

How the data were processed

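Total RNA was hybridised to 12 one-colour Agilent arrays, 3 in each group. Each deposited file gives the processed signal intensity and the flags of every spot, per the file headers. The authors used Agilent Feature Extraction (version 11.5.1.1), per the submitters' processing notes. Groups and replicate numbers came from the sample titles. The log2 intensity was reduced by the 75th percentile of each array's 59305 non-control spots, and spots marked as outliers were left out when a probe's spots were averaged. Of 56605 probes, 32994 matched a RefSeq transcript (GRCm38.p6), giving 22911 symbols, and the brightest probe stood for a gene. A probe was fitted where the 3 arrays of some group were all above background.

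One limma 3.58.1 model (R 4.3.3) with a mean per group and a variance trend gave all contrasts, two-sided, adjusted by Benjamini-Hochberg over 13283 genes. The limma fit and its interaction calls, but not the earlier steps, were tested on simulated data with independent noise and no slide difference added. Positive and negative calls at an adjusted p under 0.05 were counted by the LPS call in each genotype, and 4 genes with the largest interaction per class and up to 4 called genes with the smallest p per list (2 if none was called) were named. Other genes in the text were chosen after their values were seen, as were the families. The members and all gene lists were chosen with earlier results of these data known, so lists are described by counts and medians without a test. The number of arrays limits the precision. To look for pairing, each gene's group mean was subtracted and the remainders were correlated between arrays of equal replicate number. These correlations were 0.105, 0.371 and 0.481 between WT PBS and WT LPS. Between KO PBS and KO LPS they were 0.040, 0.113 and 0.081, so pairing was not settled. No 2 arrays were copies: the median difference between replicates was 0.0594 to 0.175. Alternatives were other background corrections, scalings, filters and probe choices, the slide and the replicate number as terms, array weights, and leaving out each array. Values of 3 genes are not reported here; they remain in the counts and medians.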

Additional observations from a re-analysis of the deposited data

Results flagged for a closer look

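The LPS difference was tested as different between WT and KO, by the interaction itself, in 541 genes (4.59% of 11776). Among the named ones, 8 had LPS calls of opposite direction in the 2 genotypes. Those that rose in WT and fell in KO were Ifit1bl1 (-2.45), Rin2 (-1.91), Nmral1 (-1.71) and Hap1 (-1.63). Those that fell in WT and rose in KO were Nudt7 (1.34), Cacna1b (1.21), Strbp (0.88) and Tlr1 (0.75). The arrays behind them lay on 2 slides, and with the slide as a term Cacna1b and Strbp were not called.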

How the results depend on the processing

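Across 26 alternatives, 47 to 49 of the interferon-stimulated genes were called negative, and the list's median stayed between -1.45 and -1.26, the latter after normexp correction of the median signal with quantile normalization. LPS calls numbered 7193 to 9059 in WT and 6209 to 9471 in KO. None of the named genes reversed, though many of the alternatives could not have reversed a call, as given below. Of 74 named calls, 39 held under all 26 alternatives and 47 held with the slide as a term. Of the 35 that lost the call under some alternative, 27 lost it with the slide as a term. Of the other 8, Casp1, Tmem229b, Tnfrsf18 and Hepacam2 lost it with KO PBS from slide 2 alone (adjusted p = 0.0527 to 0.0713).

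The count of interaction calls was less stable, and the cause was not tested. Array weights gave 4794 calls (2191 positive and 2603 negative), with KO PBS replicate 3 weighted at 0.149 and WT PBS replicate 1 at 4.66. KO PBS from slide 2 alone gave 317 (37 positive and 280 negative). Positive calls numbered 62 under median scaling, 221 with the 75th percentile of probes above background on all 12 arrays, 161 with the normexp setting, 65 with no filter on low signal, where more genes are adjusted over, and 59 with the slide as a term. Leaving out each array in turn gave 349 to 2549 calls in all, 42 to 1057 positive and 305 to 1492 negative; the highest of each came without KO PBS replicate 3. Of the 541 genes, all kept their sign under each alternative except 1 under the mean of a gene's probes. For many alternatives this outcome was fixed, because in these genes every KO difference between arrays lay beyond every WT difference. Leaving out an array, array weights, the slide as a term, the replicate block or KO PBS from slide 2 alone could not change a sign. Other scalings and probe choices could.

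With the replicate number as a block (replicate block) there were 551 calls, 470 of them shared in direction, and 64 of the 74 named calls held; with the slide as a term as well there were 421. The best correlated array of the other treatment had the same number for 4 of 6 WT and 6 of 6 KO arrays. Each gene's group mean was subtracted first. The normexp correction on the mean signal was not run because that column is not used here; the one on the median signal was added after the data were seen. Genes that were not above background on every array are outside the counts: 17 positive and 15 negative calls fell among those 1507 genes.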

Other observations

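Interferon-alpha genes differed between the genotypes after LPS in the other direction than the interferon-stimulated genes. The 8 interferon-alpha genes that were above background on all 6 LPS arrays were called higher in KO than in WT after LPS, by 0.71 to 1.19 (limma), at a median of 0.97. Among the 11776 genes above background on all 12 arrays, 19.0% were called higher in KO after LPS. In the slide model the 8 interferon-alpha differences spanned 0.077 to 1.56 (median 0.38), and 2 were called, Ifna4 (1.56) and Ifna12 (1.53). Neither was above background on any PBS array, and that model takes its slide difference from the KO PBS arrays. For Ifna1, Ifna5 and Ifna14, above background on all 12 arrays, the slide-model differences were 0.08, 0.21 and 0.36, none of them called. Ifna7, Ifna9, Ifna11 and Ifna15 were above background on all KO LPS arrays but not on all WT LPS arrays, and are left out of these counts. Ifna4 measured -2.72, -2.60 and -2.88 in WT LPS and -1.54, -1.51 and -1.58 in KO LPS, and was not above background in PBS. The 3 genes above background on all 12 arrays, Ifna1, Ifna5 and Ifna14, had interactions of 0.50 to 0.74, none of them called (adjusted p = 0.27, 0.189 and 0.129). Ifna5 measured -1.54, -1.38 and -1.66 in WT LPS and -0.65, -0.56 and -0.60 in KO LPS. Ifnb1 was above background on 1 of 3 WT PBS, 1 of 3 WT LPS and 3 of 3 KO LPS arrays. Its difference between KO and WT after LPS was not called (0.64, limma adjusted p = 0.49). The WT LPS replicate 3 value of Ifnb1, -2.46, was above every KO LPS value, at -2.95, -3.93 and -3.57. Interferon-alpha genes are near-identical, so their probes may share signal, and these are dim probes measured on different slides: 51.4% to 57.1% of spots were above background on the KO LPS arrays and 48.8% to 53.5% on the WT LPS arrays. The part of this in the result was not tested.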
